A study of Mus musculus with 12 samples.

Results

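The genes described are 8 of the 54232 in the deposited count table, chosen by name: the phosphoinositide 3-kinase (PI3K) catalytic subunits Pik3ca, Pik3cb and Pik3cd, the regulatory subunits Pik3r1 and Pik3r3, the kinase Akt1, and the lipid phosphatases Inpp4b and Inpp5d. Each name matched 1 row of the table, and all 8 genes were among the 12897 that passed the filter on low counts. The tumors were subcutaneous SVR xenografts, in which SVR, a line of mouse endothelial cells used as an angiosarcoma model, was grown in nude mice aged 8 to 12 weeks. The labels give C57BL/6 as the strain and SVR as the cell line of all samples. After 3 to 7 days for the tumors to establish, mice were gavaged daily with vehicle (control tumors), 1 mg/kg trametinib, 3 mg/kg cediranib, or both drugs at those doses (combination treated tumors). Trametinib inhibits MEK in the MAPK pathway, and cediranib inhibits the VEGF receptors. Each of the 4 groups had 3 tumors.

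Class I PI3K phosphorylates the membrane lipid phosphatidylinositol bisphosphate to the trisphosphate, which recruits AKT to the membrane. A catalytic subunit works as a dimer with a regulatory subunit, which stabilises it, holds it inactive and brings it to activated receptors. The signal is ended by phosphatases: INPP5D (SHIP1) and INPPL1 (SHIP2) convert the trisphosphate to the 3,4-bisphosphate, and INPP4A and INPP4B act on that 3,4-bisphosphate. In endothelial cells this pathway lies downstream of the VEGF receptors, beside the MAPK pathway.

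Transcripts of the 8 genes did not move together. Against control, Inpp4b fell in trametinib treated and in combination treated tumors, Inpp5d fell by less in both, and Pik3r3 rose in both. The Inpp5d falls did not pass in most fits that left out a tumor. With epidermal or myeloid markers in the model, the combination differences of Inpp5d and Pik3r3 did not pass. Pik3r3 shares exons with Gm49337, and transcripts of these genes cannot be told apart there. Inpp4b levels in combination treated tumors lay below those in trametinib treated tumors, a difference that did not pass the test. The difference was smaller with epidermal markers in the model, but the mean level of these markers did not overlap between the groups compared. For Pik3ca, Pik3cb, Pik3cd, Pik3r1 and Akt1 no comparison reached a false discovery rate (FDR) of 0.05. Cediranib alone gave 0 members past that threshold, as it did for 0% of all genes tested. The FDR is that of the edgeR quasi-likelihood test, adjusted by Benjamini-Hochberg over all genes tested. A gene was called when it also changed by at least 1.5 on the log2 scale.

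The libraries held 9478865 to 11666094 counts, and levels are given as CPM, counts per 1000000 counts of the library after normalization by TMM factors. A count of 0 allows a level of up to 3 counts, which was 0.251 to 0.349 CPM in these libraries. All 8 genes lay above this limit in all 12 tumors, the lowest value being 5.76 CPM. The paper states that exome capture was chosen because of relatively high RNA degradation in the tumors. Libraries were made by this capture from whole tumor RNA, so a gene's count also depends on its probes. Tumor and host cells, both of mouse origin, were not separated. In such bulk samples fewer cells of a type and less RNA per cell cannot be told apart. The labelled endothelial identity was checked with 12 markers, of which 11 passed the filter. Their summed level ran from 257 to 513 CPM in control tumors, from 114 to 175 after trametinib, from 160 to 400 after cediranib and from 81.9 to 146 after the combination, and Emcn was at 0 in all trametinib treated tumors. Samples are separate tumors by their labels. The sources used here do not say how long each tumor was treated.

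In the GRCm38 coordinates of the table, Inpp4b lies on chr8:81342556-82122788 on the plus strand, Inpp5d on chr1:87620312-87720507 plus, Pik3ca on chr3:32397671-32466107 plus, Pik3cb on chr9:99036654-99140621 minus, Pik3cd on chr4:149649168-149702571 minus, Pik3r1 on chr13:101680563-101768217 minus, Pik3r3 on chr4:116221618-116303056 plus and Akt1 on chr12:112653821-112674884 minus. Exons of Inpp4b, Inpp5d, Pik3ca, Pik3cb, Pik3cd, Pik3r1 and Akt1 share no base with those of another gene in GENCODE M21. Pik3r3 shares 1289 exon bases with Gm49337, a protein coding gene on the same strand.

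The 250 bases before the transcription start are shown for the 3 of 8 genes that passed the FDR with trametinib (6.12% of all genes tested did), and for Pik3ca as a gene of the same pathway that did not. The sequences are RefSeq's (GRCm38.p6), printed 5′ to 3′ on the gene's strand, with capitals where a searched motif was found. Inpp4b is from chr8:81342312-81342561, Inpp5d from chr1:87620062-87620311, Pik3r3 from chr4:116221166-116221415, the first of its 3 windows, and Pik3ca from chr3:32396815-32397064, all on the plus strand.
Inpp4b: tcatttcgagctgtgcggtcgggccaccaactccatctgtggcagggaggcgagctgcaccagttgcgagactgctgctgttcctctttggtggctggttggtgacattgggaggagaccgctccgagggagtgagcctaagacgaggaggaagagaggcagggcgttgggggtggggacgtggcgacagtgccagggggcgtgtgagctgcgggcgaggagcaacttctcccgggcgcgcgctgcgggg
Inpp5d: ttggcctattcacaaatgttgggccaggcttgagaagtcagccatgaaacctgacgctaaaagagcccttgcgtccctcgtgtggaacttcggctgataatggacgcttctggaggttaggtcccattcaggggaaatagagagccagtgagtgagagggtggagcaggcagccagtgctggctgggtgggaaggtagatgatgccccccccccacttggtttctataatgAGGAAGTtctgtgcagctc
Pik3r3: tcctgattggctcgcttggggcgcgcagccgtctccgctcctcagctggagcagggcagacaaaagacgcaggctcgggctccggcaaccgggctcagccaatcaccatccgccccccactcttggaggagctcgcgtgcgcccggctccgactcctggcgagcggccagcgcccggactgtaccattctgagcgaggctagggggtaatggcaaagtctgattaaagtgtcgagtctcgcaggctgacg
Pik3ca: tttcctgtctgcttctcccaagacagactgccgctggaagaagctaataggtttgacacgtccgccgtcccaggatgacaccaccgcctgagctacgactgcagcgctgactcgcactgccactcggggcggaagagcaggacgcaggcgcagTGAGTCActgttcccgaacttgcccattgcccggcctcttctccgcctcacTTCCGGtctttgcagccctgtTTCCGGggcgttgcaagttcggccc

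Windows of 250 bases before a start site were searched on both strands for letters bound by factors of the MAPK and AKT pathways: CCGGAA and AGGAAGT for ETS factors, TGANTCA for AP-1, TGTTTAC for FOXO and GCGTGGGCG for EGR. Inpp4b held none of them, nor did the 3 windows of Pik3r3. Inpp5d held AGGAAGT starting 19 bases before its start site. Pik3ca held the complement of CCGGAA 46 and 25 bases before the start and an AP-1 match at 97 bases. A window of Akt1 that is not shown held TGTTTAC at 161 bases, and no match was found in Pik3cb, Pik3cd or Pik3r1. Of 32851 promoters in the table, 12% held CCGGAA, 7.69% AGGAAGT, 6.75% TGANTCA, 3.17% TGTTTAC and 0.536% GCGTGGGCG. The absence of a match says only that these letters are not in this window.

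Levels between genes were compared per kilobase of the table's exon length. In control tumors Akt1 stood highest at 177 CPM per kilobase (range 156 to 191, n = 3). Inpp5d followed at 15.5 (13.6 to 16.7), Pik3ca at 10.2 (7.88 to 11.6), Inpp4b at 5.12 (3.06 to 6.55), Pik3cb at 4.29 (4.06 to 4.50), Pik3cd at 3.03 (2.52 to 3.84), Pik3r3 at 2.39 (2.34 to 2.43) and Pik3r1 at 1.88 (1.77 to 1.94). Neighbours in this order did not overlap in range, except Inpp4b and Pik3cb. In trametinib treated tumors Pik3r3 reached 7.06 CPM per kilobase and Inpp4b 1.05, the lowest of the 8. In combination treated tumors Inpp4b stood at 0.447 and Pik3r3 at 6.19.

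**Figure D1:**
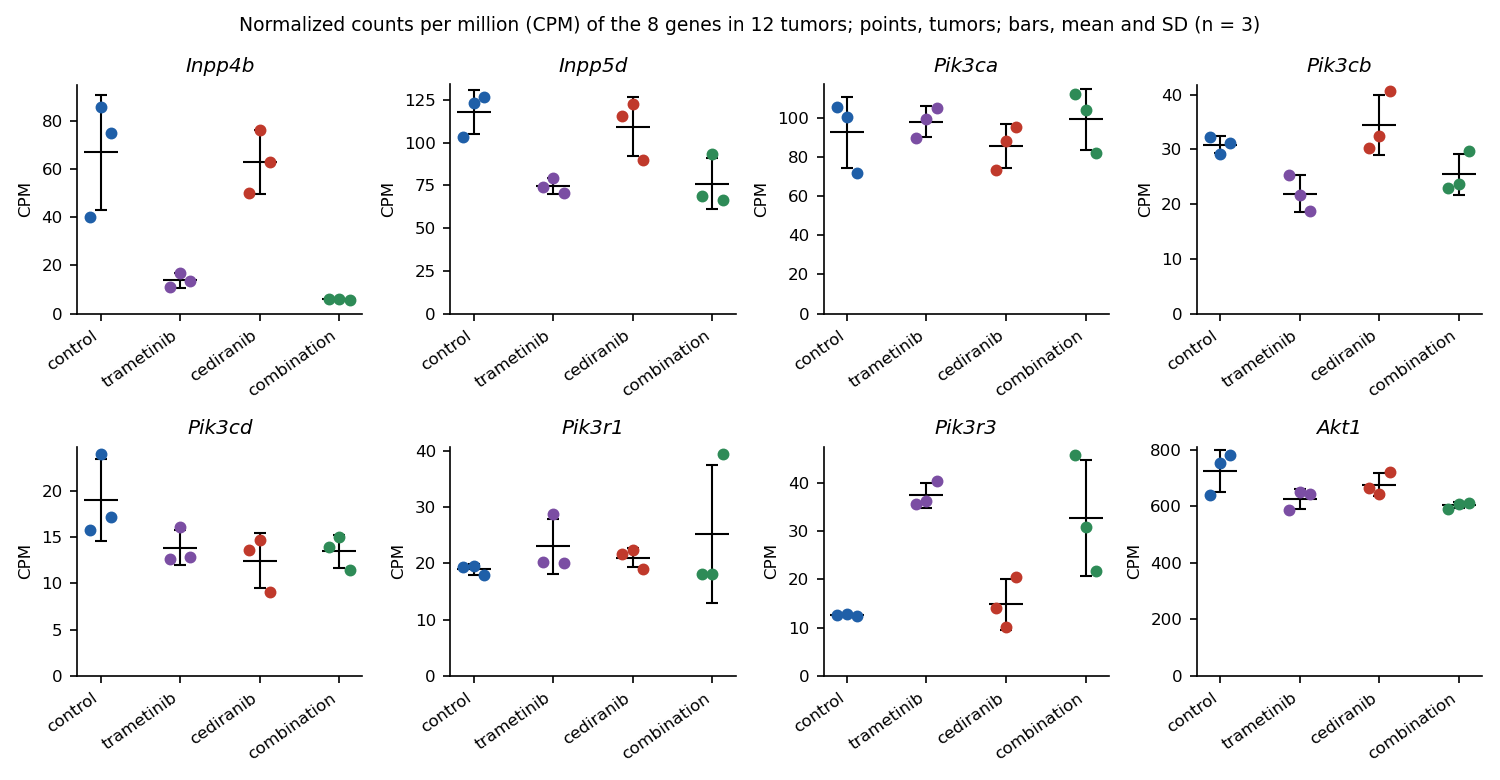
Normalized CPM (linear axes from 0) of the 8 genes in each tumor, with points for tumors and bars for the mean and SD of 3 tumors. Inpp4b sits between 5.76 and 16.8 CPM in all trametinib and combination treated tumors and at 39.9 or above in control and cediranib treated tumors, and Pik3r3 shows the opposite order.

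Pik3ca encodes the catalytic subunit p110α, which carries signals of growth factor receptor kinases. It measured 105, 100 and 71.6 CPM in control tumors 1 to 3, 89.3, 99.3 and 105 after trametinib, 73.4, 87.9 and 95.2 after cediranib, and 112, 104 and 81.9 after the combination. The 4 groups overlapped. Its log2 fold change was 0.08 with trametinib (95% CI -0.28 to 0.45, FDR 0.845) and 0.10 with the combination (-0.27 to 0.47, FDR 0.751), so a change of more than about 0.47 in either direction lay outside both intervals.

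Pik3cb encodes p110β, which also answers G protein coupled receptors. Its levels were 32.4, 29.2 and 31.1 CPM in control tumors, 25.4, 21.6 and 18.7 in trametinib treated tumors, 30.3, 32.5 and 40.8 in cediranib treated tumors, and 22.9, 23.7 and 29.8 in combination treated tumors. Every trametinib treated tumor lay below every control tumor, but the log2 fold change of -0.50 ± 0.17 (SE) gave an FDR of 0.106. With the combination, where control and treated tumors overlapped, it was -0.28 ± 0.17 (FDR 0.307).

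Pik3cd encodes p110δ, the isoform best known from leukocytes. Control tumors had 15.8, 24.0 and 17.2 CPM, trametinib treated tumors 12.6, 16.1 and 12.9, cediranib treated tumors 13.6, 14.7 and 9.09, and combination treated tumors 13.9, 14.98 and 11.4. Cediranib and combination treated tumors all lay below the control tumors. With cediranib the log2 fold change was -0.61 ± 0.23 (FDR 0.999), and Pik3cd was the single member whose edgeR p was under 0.05 before adjustment. With the combination it was -0.50 ± 0.22 (FDR 0.177).

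The leukocyte isoform Pik3cg, encoding p110γ, was measured as a relative of these genes. It had 11.3, 18.6 and 12.6 CPM in control tumors, and 1.73, 5.24 and 3.77 after trametinib, a fall of 1.99 ± 0.39 on the log2 scale (FDR 0.0109) with no overlap. It remained past the FDR in all 6 fits that left out 1 tumor of either group. After the combination it had 4.24, 8.63 and 6.87 CPM (log2 fold change -1.10 ± 0.38, FDR 0.0829), a difference that passed without the filter (FDR 0.00311), with the likelihood ratio test (0.0463) and with DESeq2 (0.0355). With the myeloid marker level in the model it was -0.36 (FDR 0.701). Among the 3 catalytic members alone, Pik3ca made up 57.8% ± 4.82 (SD, n = 3) of the summed CPM per kilobase in control tumors, 67.1% ± 3.78 after trametinib, 58.0% ± 1.88 after cediranib and 65.5% ± 4.78 after the combination. For trametinib the difference of 9.35 points gave an exact two-sided permutation p of 0.1, the smallest that 3 against 3 tumors allow.

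Pik3r1 encodes p85α with its shorter forms, the main regulatory subunits. It measured 19.3, 19.6 and 17.9 CPM in control tumors, 20.2, 28.8 and 20.1 after trametinib, 21.7, 22.4 and 19.0 after cediranib, and 18.2, 18.2 and 39.5 after the combination. The trametinib values all lay above the control values, with a log2 fold change of 0.28 ± 0.27 (FDR 0.637). The combination mean rested on combination tumor 3: with it the log2 fold change against control was 0.42 (FDR 0.355), and without it -0.07 (FDR 0.872).

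Pik3r3 encodes p55γ, a regulatory subunit with a short amino-terminal part. Control tumors had 12.7, 12.9 and 12.4 CPM, and trametinib treated tumors 35.8, 36.2 and 40.4. Cediranib treated tumors had 14.1, 10.0 and 20.5 CPM, and combination treated tumors 45.8, 30.9 and 21.8. All trametinib and combination values lay above all control and cediranib values, and the combination values were the most spread. Pik3r3 rose 2.96-fold with trametinib (log2 fold change 1.56 ± 0.28, FDR 0.00606) and 2.59-fold with the combination (1.37 ± 0.28, FDR 0.0115), and was 2.21-fold higher with the combination than with cediranib (1.14 ± 0.27, FDR 0.0282). The first 2 of these passed the FDR in all 6 fits that left out a tumor, though the trametinib value fell just under the 1.5 size threshold without trametinib tumor 3 (1.49) and the combination value rose past it without combination tumor 3 (1.59). The third was lost without cediranib tumor 1 or 2 or combination tumor 1 or 2, with FDRs up to 0.0957. Combination and trametinib treated tumors differed by -0.19 (95% CI -0.77 to 0.39, FDR 0.756).

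Because Pik3r3 shares exons with Gm49337, its counts were set beside those of that gene. The Gm49337 count was 86.6% to 93.4% of the Pik3r3 count in every library, and the sources used here do not say how reads on shared exons were assigned. Transcripts of these overlapping genes therefore cannot be told apart over the shared exons. This limit also holds for the levels per kilobase and the shares given for Pik3r3. The Pik3r3 count less the Gm49337 count, a quantity chosen after the data were seen, was 10 to 20 reads in control tumors, 24 to 52 after trametinib, 7 to 19 after cediranib and 29 to 33 after the combination. As CPM these differences averaged 1.28 ± 0.374 (SD, n = 3) in control tumors, 3.32 ± 0.895 after trametinib, 1.39 ± 0.636 after cediranib and 2.92 ± 0.361 after the combination. Here too every trametinib and combination value lay above every control and cediranib value.

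Pik3r2, which encodes p85β and was measured as a relative, averaged 89.5 CPM in control tumors and 126 after trametinib (log2 fold change 0.50 ± 0.18, FDR 0.136), and it held most of the regulatory level per kilobase. The share of Pik3r3 among Pik3r1, Pik3r2 and Pik3r3 was 9.495% ± 1.52 (SD, n = 3) in control tumors, 18.0% ± 1.68 after trametinib, 11.4% ± 3.03 after cediranib and 18.1% ± 4.99 after the combination. The trametinib and combination shares lay above all control shares (exact permutation p = 0.1 each). The share of Pik3r1 was 7.45% ± 1.10 in control and 5.87% ± 1.54 in trametinib treated tumors, with overlap.

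Akt1 encodes a serine/threonine kinase recruited by the lipid products of PI3K. It had 640, 751 and 782 CPM in control tumors, 585, 649 and 642 after trametinib, 665, 643 and 720 after cediranib, and 591, 608 and 612 after the combination. Combination treated tumors lay below all control tumors, by a log2 fold change of -0.26 ± 0.11 (FDR 0.133). With trametinib the value was -0.21 ± 0.11 (95% CI -0.44 to 0.02, FDR 0.282). Akt1 varied least of the 8 genes, with an SD of 0.134 over the 12 log2 CPM values.

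The relative Akt2 gave a log2 fold change of 0.16 (FDR 0.456) with trametinib, -0.12 (FDR 0.999) with cediranib and 0.05 (FDR 0.824) with the combination, and its groups overlapped control in all 3.

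Inpp4b encodes a phosphatase that removes the 4-phosphate of phosphatidylinositol 3,4-bisphosphate. It had 39.9, 85.7 and 74.96 CPM in control tumors and 10.8, 16.8 and 13.7 in trametinib treated tumors. Cediranib treated tumors had 49.9, 76.3 and 62.7 CPM, within the control range. Combination treated tumors had 5.86, 5.90 and 5.76 CPM, each below the lowest trametinib treated tumor. The control and cediranib groups overlapped, and neither overlapped the groups that received trametinib.

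Inpp4b was 4.87-fold lower in trametinib treated than in control tumors (log2 fold change -2.28 ± 0.27, FDR 0.000621) and 11.4-fold lower in combination treated tumors (-3.51 ± 0.29, FDR 0.000225). Against cediranib the combination was 10.8-fold lower (-3.43 ± 0.29, FDR 0.000202). Ranked by p among the 12897 genes, Inpp4b was the 44th with trametinib, the 2nd with the combination against control and the 3rd with the combination against cediranib. These 3 differences held in every fit that left out 1 tumor, with log2 fold changes from -2.56 to -2.07, from -3.78 to -3.30 and from -3.57 to -3.27. Cediranib alone gave -0.09 (95% CI -0.64 to 0.47, FDR 0.999).

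Combination treated tumors had 2.34-fold less Inpp4b than trametinib treated tumors, a log2 fold change of -1.23 ± 0.28 with an edgeR FDR of 0.062 (unadjusted p = 0.000888). The FDR fell to 0.00426 with edgeR's likelihood ratio test, 0.00281 with DESeq2, 0.0243 with only these 2 groups in the fit and 8.24e-07 without the filter on low counts. With the mean epidermal marker level as a term in the model the difference was -0.26 ± 0.38 (FDR 0.988), and with the mean myeloid marker level -0.91 ± 0.27 (FDR 0.23), models in which 0.0233% and 0% of all genes passed in this comparison. All 17 epidermal markers tested were higher in combination than in trametinib treated tumors, 5 past the FDR, with a median log2 fold change of 8.94. The mean epidermal marker level (log2 CPM) was 4.76 to 5.29 in combination and -1.74 to -1.3 in trametinib treated tumors. Between these 2 groups it cannot be told apart from treatment. Without any 1 tumor of either group the edgeR FDR of Inpp4b in this comparison lay between 0.097 and 0.166. Whether cediranib acted on Inpp4b differently with and without trametinib was tested as an interaction, which gave -1.14 ± 0.38 (unadjusted p = 0.0105, FDR 0.654). Without the filter the interaction FDR was 0.0105, and with the epidermal marker level in the model the interaction was -0.53 (FDR 0.849).

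Inpp4a, the related gene with the same substrate, averaged 14.6 CPM in control tumors, 14.2 after trametinib, 13.5 after cediranib and 18.0 after the combination, with overlap between all of these and control. Per kilobase, Inpp4b made up 76.9% ± 9.03 (SD, n = 3) of Inpp4a and Inpp4b together in control tumors and 78.3% ± 7.05 after cediranib. The share was 43.2% ± 5.12 after trametinib and 20.8% ± 3.07 after the combination. The trametinib, combination and control shares did not overlap one another, each with an exact two-sided permutation p of 0.1.

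Inpp5d encodes SHIP1, a 5-phosphatase known chiefly from blood cells. Its levels were 103, 123 and 127 CPM in control tumors, 74.0, 79.5 and 70.2 after trametinib, 115.5, 122 and 90.0 after cediranib, and 68.5, 93.0 and 66.2 after the combination. Trametinib and combination values all lay below the control values. Inpp5d fell by 0.66 ± 0.16 on the log2 scale with trametinib (1.58-fold, FDR 0.0308) and by 0.63 ± 0.16 with the combination (1.55-fold, FDR 0.0287). Against cediranib, where the groups overlapped, the combination gave -0.53 ± 0.16 (FDR 0.0655). This difference passed with DESeq2 (FDR 0.0285), without the filter on low counts (0.044), without cediranib tumor 3 (0.0459) and without combination tumor 2 (0.0366).

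With trametinib the FDR of Inpp5d held in 1 of 6 fits that left out a tumor. It was lost without control tumor 2 or 3 or any trametinib treated tumor, with FDRs up to 0.106. With the combination it held in 2 of 6 and was lost without control tumor 2 or 3 or combination tumor 1 or 3, with FDRs up to 0.104. Scaled by library totals alone, the combination difference was -0.50 (FDR 0.0521). The relative Inppl1, encoding SHIP2, averaged 95.02 CPM in control tumors, 98.0 after trametinib and 94.6 after the combination. The share of Inpp5d in the summed CPM per kilobase of both was 50.9% ± 2.30 (SD, n = 3) in control tumors, 39.0% ± 1.84 after trametinib, 54.4% ± 3.02 after cediranib and 40.1% ± 3.86 after the combination, without overlap of the trametinib or combination shares with control (exact permutation p = 0.1 each).

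**Figure D2:**
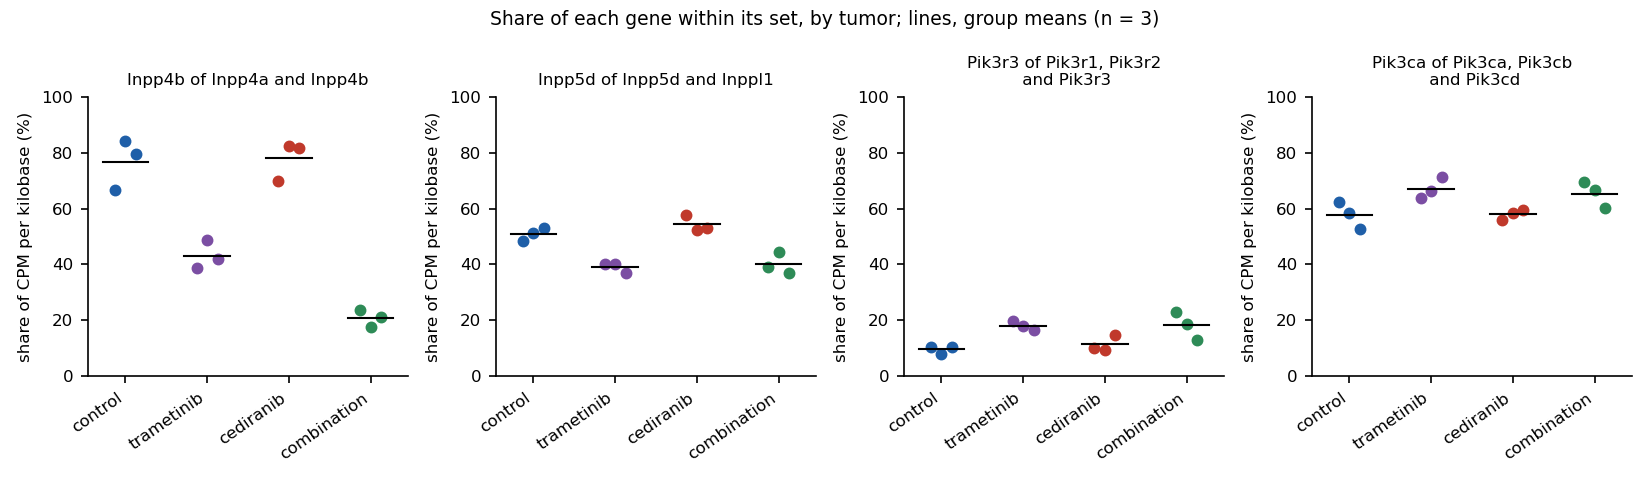
Share of a gene in the summed CPM per kilobase of its set (percent, axes from 0 to 100), with points for tumors and lines for means of 3 tumors. Inpp4b falls from 76.9% of Inpp4a and Inpp4b in control tumors to 43.2% with trametinib and 20.8% with the combination, and the Pik3r3 share rises from 9.495% to 18.0% with trametinib.

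Markers of other cell types were summed beside these results. For myeloid cells, which express Inpp5d and Pik3cd, 15 of 16 markers passed the filter. Their sum was 459, 778 and 564 CPM in control tumors, 362, 513 and 394 after trametinib, 408, 527 and 330 after cediranib, and 300, 388 and 228 after the combination. With trametinib 8 of the 15 were lower and 0 passed the FDR, and with the combination 14 were lower and 3 passed. The defining factor Spi1 gave log2 fold changes of -0.18 (FDR 0.8) and -0.48 (FDR 0.32). With the mean myeloid marker level as a term in the model, the combination difference of Inpp5d was -0.34 (FDR 0.306), that of Pik3r3 1.06 (FDR 0.14) and that of Inpp4b -3.06 (FDR 0.00131). The trametinib difference of Inpp5d was then -0.57 (FDR 0.0212), and Pik3cb, at -0.57 (FDR 0.0425), passed.

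Epidermal markers, 17 of 18 tested, summed to 23.6 to 725 CPM in control tumors, 4.10 to 10.4 after trametinib, 45.3 to 3755 after cediranib and 3541 to 5520 after the combination. With the mean epidermal marker level in the model, the combination difference from control was -0.40 for Inpp5d (FDR 0.505), 0.96 for Pik3r3 (FDR 0.321) and -2.82 for Inpp4b (FDR 0.00456). The trametinib difference of Inpp5d was -0.77 (FDR 0.0215). Neither trametinib nor combination treated tumors overlapped control tumors in this marker level, so between these groups it cannot be told apart from treatment. Of the 11 endothelial markers 10 were lower with trametinib, 5 past the FDR, with a median log2 fold change of -1.82. With the combination all 11 were lower, 6 past the FDR, with a median of -1.81. Lymphoid markers summed to at most 6.68 CPM in any tumor, and 1 of 8 was tested. Erythroid markers summed to 74.0 to 1791 CPM in control tumors, 54.1 to 90.3 after trametinib, 53.95 to 569.6 after cediranib and 15.1 to 16.1 after the combination. All 5 were lower with the combination than in control tumors, 4 past the FDR, with a median log2 fold change of -5.37. Fibroblast markers summed to 2060 to 21090 CPM in control tumors, 8105 to 36940 after trametinib, 1606 to 6758 after cediranib and 2648 to 5339 after the combination. Of the 8, 6 were higher with trametinib (median 1.14, 1 past the FDR) and 5 lower with the combination (median -1.02, 1 past the FDR). The 7 skeletal muscle markers, which summed to 17.4 to 16690 CPM in control tumors, had medians of 1.02 with trametinib and -4.44 with the combination. Adipocyte markers ranged from 3.54 to 17.4 CPM over all tumors. The part of these cell types in the differences of Inpp4b, Inpp5d and Pik3r3 was not tested further.

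**Figure D3:**
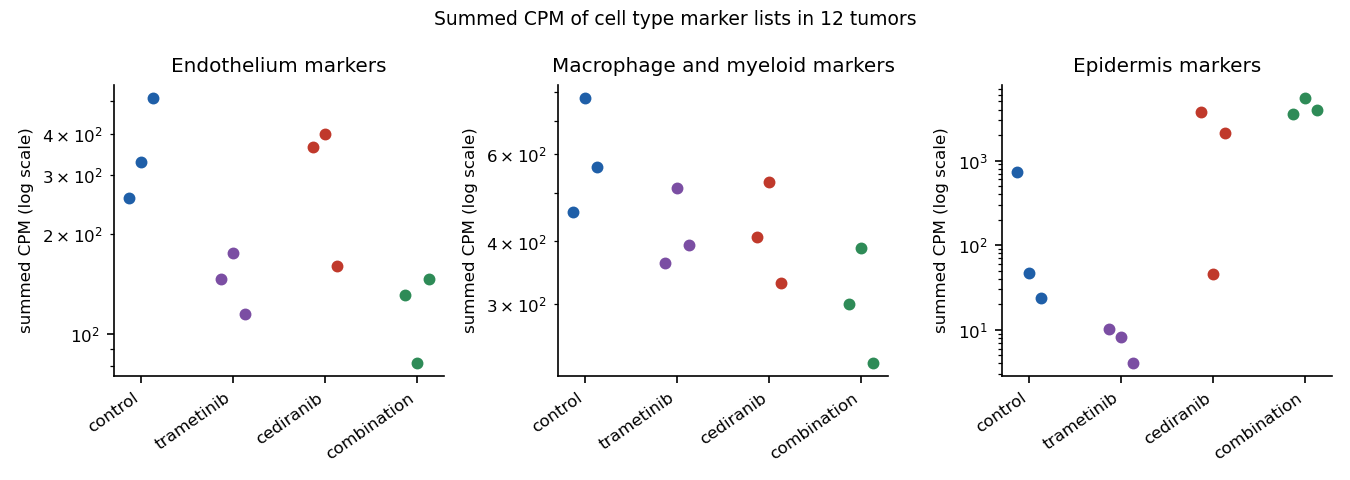
Summed CPM (log axes) of endothelial, myeloid and epidermal marker lists in the 12 tumors. Endothelial sums lie between 81.9 and 175 CPM in trametinib and combination treated tumors against 257 to 513 in control tumors, and epidermal sums lie between 3541 and 5520 CPM in all combination treated tumors.

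Counted over the members, 3 of 8 passed the FDR with trametinib (Pik3r3 higher, Inpp4b and Inpp5d lower), beside 6.12% of all genes tested. Of these, 2 were called with the size threshold, beside 2.4% of all genes. With the combination the same 3 genes passed, beside 9.98%, and Inpp4b was called, beside 3.61%. Between combination and cediranib 2 members passed (Inpp4b and Pik3r3), beside 7.68%, and Inpp4b was called, beside 2.45%. Between combination and trametinib 0 members passed in edgeR, beside 0.969%, and 0 were called, beside 0.675%. There 1 member, Inpp4b, had an unadjusted p under 0.05, beside 17.9% of all genes, and it passed by DESeq2. The interaction gave 0 members and 0% of all genes, and 1 member at an unadjusted p under 0.05, beside 7.05%. With cediranib 0 of 8 members passed, as did 0% of all genes. There 1 member had an unadjusted p under 0.05, beside 4.32% of all genes, and the likelihood ratio test and DESeq2 also gave 0 members.

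The comparisons with control share their control tumors and so are not independent of one another. The median log2 fold change over the 8 members was -0.33 with trametinib, -0.09 with cediranib and -0.27 with the combination, beside medians of 0.01, 0.00 and 0.00 over all genes. Groups did not overlap for 5 members with trametinib, beside 25.8% of genes, for 1 with cediranib, beside 7.76%, and for 5 with the combination, beside 31.3%. Between combination and trametinib they did not overlap for 1 member, beside 24.2%, and between combination and cediranib for 4, beside 28.4%.

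**Figure D4:**
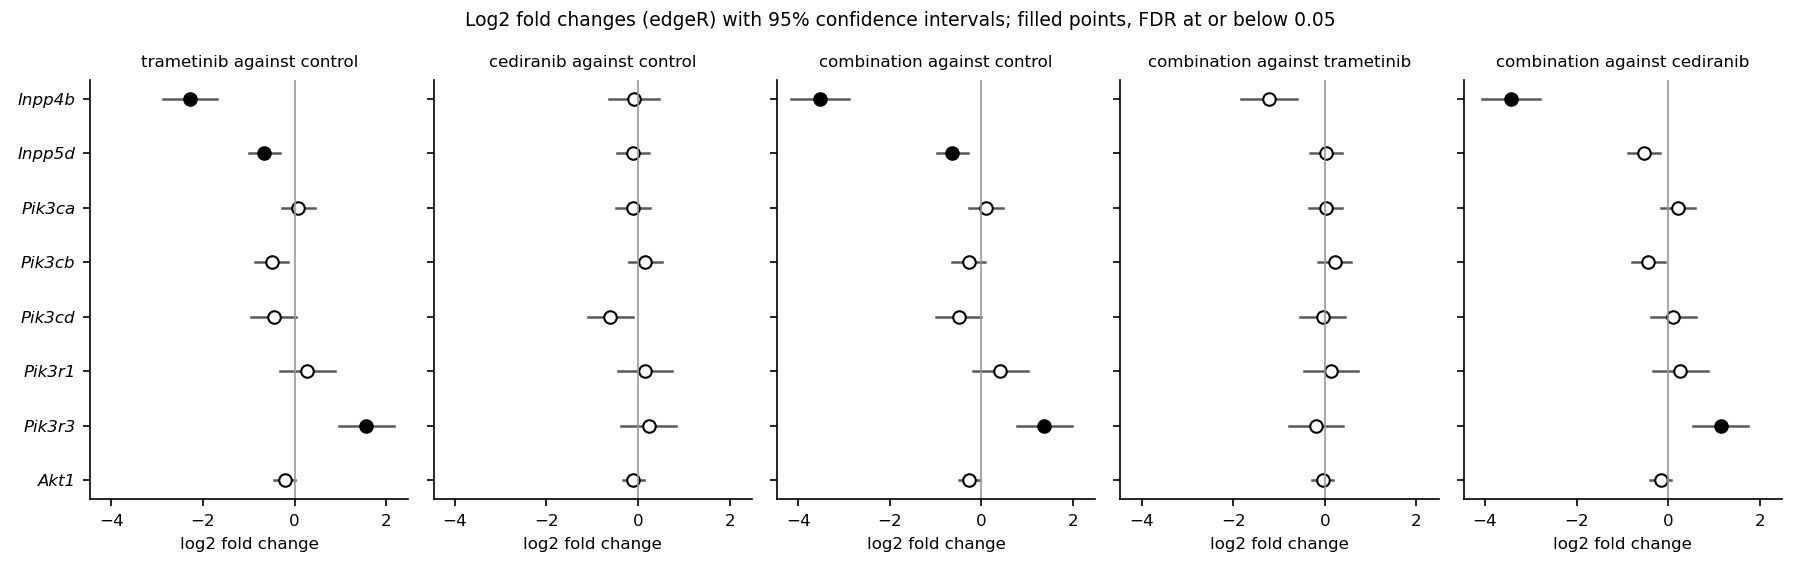
Log2 fold changes of the 8 genes in 5 comparisons, with 95% confidence intervals from the edgeR fit of 12 tumors and filled points at an FDR of 0.05 or below. Inpp4b reaches -2.28 with trametinib and -3.51 with the combination, Pik3r3 reaches 1.56 and 1.37, and every cediranib point is open.

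The pathway around the members was described with 10 lists, which held 76 further genes, 70 of them tested. With trametinib 7 of the 70 passed the FDR, 4 higher and 3 lower, or 10.0% beside 6.12% of all genes. With the combination 8 passed, 5 higher and 3 lower, or 11.4% beside 9.98%. The median log2 fold changes were 0.11 and 0.09. Combination against cediranib gave 9 of 70 (beside 7.68% of all genes) and cediranib against control 0 (beside 0%). Combination against trametinib gave 0 (beside 0.969%), and there 8 of the 70 had an unadjusted edgeR p under 0.05, beside 17.9% of all genes. With the mean epidermal marker level in the model 3 of the 70 passed with trametinib (beside 5.89% of all genes) and 1, Synj2, with the combination (beside 1.08%). In that model Foxo3 (edgeR FDR 0.0529), Deptor (0.0703), Synj2 (0.102) and Irs1 (0.111) no longer passed with trametinib. With the myeloid marker level 8 passed with trametinib (beside 6.37%) and 2, Synj2 and Sesn1, with the combination (beside 2.16%).

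Among the 11 phosphoinositide phosphatases tested, those past the FDR in both trametinib and combination treated tumors were Inpp4b, Inpp5d and Synj2, all lower. Synj2 encodes synaptojanin 2, a 5-phosphatase that acts on the bisphosphate at clathrin-coated membranes. It measured 68.1, 85.1 and 53.2 CPM in control tumors, 41.9, 41.0 and 32.1 after trametinib, and 32.7, 31.6 and 33.1 after the combination. Its log2 fold change was -0.84 ± 0.21 (FDR 0.0375) with trametinib, which held in 1 of 6 fits that left out a tumor, and -1.08 ± 0.21 (FDR 0.0108) with the combination, which held in all 6.

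Of the 5 PIP kinases tested, which make the bisphosphate substrates of PI3K and related lipids, Pip4k2b passed in both comparisons. It averaged 105 CPM in control tumors, 72.4 after trametinib (log2 fold change -0.54 ± 0.11, FDR 0.0127) and 72.0 after the combination (-0.55 ± 0.11, FDR 0.0111). With trametinib it did not pass without control tumor 2 or trametinib tumor 1 or 2. With the combination it passed in all 6 fits that left out a tumor, but not with library totals alone (FDR 0.0604), the epidermal marker level (0.195) or the myeloid marker level (0.0944) in the model. Of the 4 class II and III genes tested, 0 passed with trametinib and Pik3c2b, a class II kinase, passed with the combination (-0.94 ± 0.25, FDR 0.0379), in 1 of 6 fits without a tumor.

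Of the 10 genes for AKT, its kinases and its phosphatases, 0 passed with trametinib and 1 with the combination. This was Phlpp2, a phosphatase of AKT, which averaged 24.2 CPM in control and 43.0 CPM in combination treated tumors (log2 fold change 0.83 ± 0.23, FDR 0.0393), and which passed in 1 of 6 fits without a tumor. Among the 13 AKT substrates and mTORC1 genes tested, Deptor, an inhibitor of mTOR, passed with trametinib (1.203 ± 0.32, FDR 0.0444) but in 0 of 6 fits without a tumor. Bad, a pro-apoptotic substrate of AKT, passed with the combination (0.68 ± 0.16, FDR 0.0198) in 3 of 6 such fits, being lost without control tumor 2 or 3 or combination tumor 2.

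FOXO transcription factors are kept out of the nucleus when phosphorylated by AKT. Foxo3 measured 177, 129 and 156 CPM in control tumors, 298, 263 and 351 after trametinib, 121, 167 and 95.7 after cediranib, and 203, 231 and 275 after the combination. It passed with trametinib (log2 fold change 0.98 ± 0.20, FDR 0.0143), though not without control tumor 2 or 3 or trametinib tumor 3, and gave 0.61 ± 0.20 (FDR 0.0752, and 0.0284 with DESeq2) with the combination. Foxo1 measured 23.2, 15.8 and 16.4 CPM in control tumors and 45.5, 39.7 and 44.0 after the combination (1.22 ± 0.28, FDR 0.0188), which did not pass without control tumor 2 or 3 or combination tumor 1 or 3. Foxo6 had 2 to 11 reads in control tumors and 16 to 158 after the combination, with 158 in combination tumor 3. Its log2 fold change of 3.30 ± 0.80 (FDR 0.0254) was 1.71 (FDR 0.0951) without that tumor, and the FDR was also lost without control tumor 2 or 3.

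Of 15 genes listed as induced by FOXO, 12 were higher with trametinib, with a list median of 0.25 beside 0.01 over all genes. Among the 12, Trim63 ranged from 0.363 to 33.4 CPM after trametinib, Fbxo32 from 3.36 to 26.3 and Pdk4 from 2.09 to 14.9. Of the 15 genes 1 passed, beside 6.12% of all genes. This was Sesn1, a stress-responsive inhibitor of mTORC1. It had 12.7, 19.6 and 12.8 CPM in control tumors and 31.1, 34.9 and 43.5 after trametinib (log2 fold change 1.28 ± 0.21, FDR 0.00433, held in all 6 fits without a tumor). After the combination it had 31.7, 35.2 and 24.0 CPM (1.01 ± 0.21, FDR 0.0132), which did not pass without control tumor 3 or combination tumor 2. Of the 7 upstream adaptors, Irs1, which couples insulin and IGF receptors to PI3K, measured 9.28, 14.2 and 18.4 CPM in control tumors and 38.1, 81.4 and 36.3 after trametinib (1.90 ± 0.50, FDR 0.0452), but passed in 0 of 6 fits without a tumor. With the combination it gave 0.36 ± 0.49 (FDR 0.691).

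**Figure D5:**
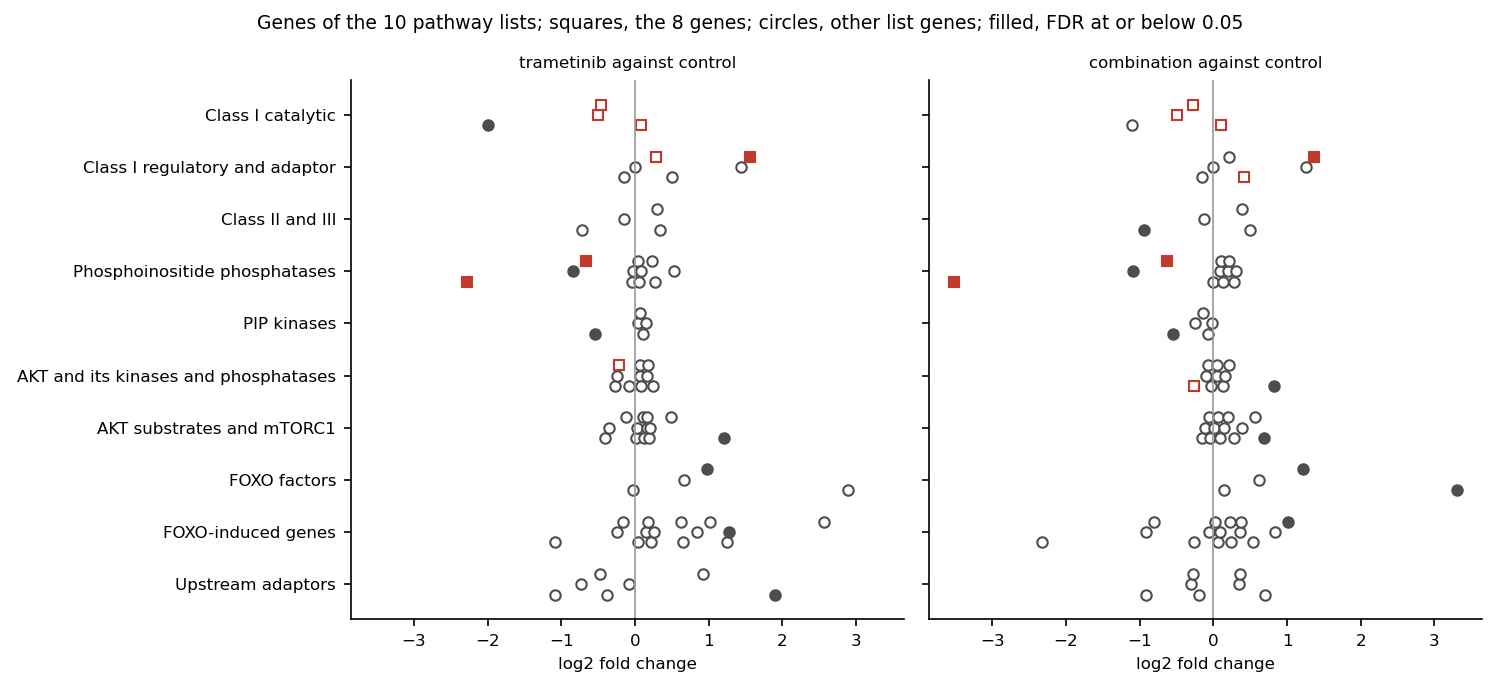
Log2 fold changes of the tested genes of 10 pathway lists with trametinib (left) and the combination (right) against control, with squares for the 8 genes, circles for other list genes and filled symbols at an FDR of 0.05 or below. Most symbols lie near 0, and Inpp4b stands at the left edge at -2.28 and -3.51.

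The genes whose levels followed each member most closely were found by the root mean square difference of centred log2 CPM over the 12 tumors, for the 3 members that varied most. For Inpp4b, with an SD of 1.55 over the 12 values, they were the kinase gene Rps6ka2 at 0.482, Krt18 at 0.529 and Crmp1 at 0.540, beside a median of 1.53 over all genes tested. For Pik3r3 (SD 0.775) they were Gm49337 at 0.0335, which shares its exons, Bbs7 at 0.214 and Tob1 at 0.285, beside a median of 0.818. For Inpp5d (SD 0.356) they were Ddx18 at 0.142, Tmem185b at 0.143 and 4930556J24Rik at 0.145, beside 0.482. Rps6ka2 gave log2 fold changes of -2.41 with trametinib, 0.08 with cediranib and -2.99 with the combination, and Krt18 gave -2.03, -0.16 and -3.76.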

How the data were processed

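RNA of 12 whole SVR tumors, 3 per treatment, had been captured with exome probes and sequenced as 50-base reads. The values the authors deposited are raw counts, which were not normalized. Per the submitters' processing notes and the paper's methods, base calling used bcl2fastq 1.8.4, alignment STAR 2.7.1a on GRCm38 and counting featureCounts 1.6.0. The sources used here do not say whether strand was used or how reads on overlapping genes were counted, and both can change counts of overlapping genes. The length column matched the exon union of GENCODE M21, UTRs included, for all 8 genes. Groups came from the sample titles, and 0 columns were left over.

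Low counts were removed with filterByExpr (at least 10 per library in enough libraries, 15 in total), which left 12897 of 54232 genes. Their counts were normalized by TMM and fitted with edgeR 4.0.16 (R 4.3.3, limma 3.58.1), 1 mean per treatment for all 12 libraries, by the quasi-likelihood test. This gave 5 comparisons and an interaction. The threshold was an FDR of 0.05, and for called genes a log2 fold change of 1.5 in size, as in the study's methods. Log2 CPM used a prior count of 2. The biological coefficient of variation was 27.2%. Shares and other single measures were compared by exact permutation. Intervals and the limit of 3 counts cover counting or sampling error only. Samples are separate tumors, and p-values measure the spread between them.

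The 8 genes, the pathway and marker lists and the rule for named genes were chosen with earlier results of these data known, and the shares within gene sets after the values were seen. All 8 genes were named, as were list genes past the FDR with trametinib or the combination (up to 4 per list, by p) and the relatives Pik3cg, Pik3r2, Inpp4a, Inppl1 and Akt2, and other genes of the rule are not reported here. Promoter sequences were RefSeq's. Alternatives were RLE factors, library totals, no filter, the likelihood ratio test, DESeq2 1.42.0, a replicate block, only the groups compared, marker scores as covariates, and leaving out each tumor.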

Additional observations from a re-analysis of the deposited data

How the results depend on the processing

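Fold changes of the members and counts of genes past the FDR were recomputed under the alternatives named for the processing. Single list genes were recomputed for trametinib and the combination against control only. The interaction had no fit with only the groups compared. Shares, their permutation tests and the likeness values were not recomputed. Members past the FDR between combination and trametinib numbered 0, but 1 (Inpp4b) with no filter on low counts, with the likelihood ratio test, with DESeq2, with only the 2 groups in the fit and with the replicate block. Members past the FDR between trametinib and control numbered 3. Pik3cb also passed there with the myeloid score (FDR 0.0425), and Inpp5d was lost without control tumor 2 or 3 or any trametinib treated tumor. Members past the FDR between combination and control numbered 3, but 1 with the epidermal or the myeloid score, 2 with library totals and 2 to 3 without 1 tumor. Between combination and cediranib they numbered 2, but 1 with either score or with only the 2 groups in the fit, 3 with no filter or DESeq2, and 1 to 3 without 1 tumor (1 without cediranib tumor 1 or 2 or combination tumor 1, 3 without cediranib tumor 3). Members called with trametinib numbered 2, but 1 with the myeloid score, and 1 to 2 without 1 tumor (1 without trametinib tumor 3). Members called with the combination numbered 1, and 1 to 2 without 1 tumor (2 without combination tumor 3). The interaction had 0 members past the FDR, but 1 with no filter. The cause of these changes was not tested. Replicate numbers were not taken to pair the tumors: correlations of same-numbered tumors ran from -0.219 to 0.356 over 15 pairs, 3 above 0.1, and in 2 pairs the tumor correlated best with its own number. With the block Inpp4b between combination and trametinib had an FDR of 0.0375, genes past the FDR there went from 125 to 81, Pik3c2b with the combination (0.0503) and Synj2 with trametinib (0.0661) no longer passed, Foxo6 with trametinib (0.0344) did, and no other named gene crossed the threshold in the comparisons described. Library totals moved the median log2 fold change of all genes by 0.128 to 0.13 for the combination against control and against trametinib.

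Values that changed sign passed no FDR threshold. With the epidermal score Inpp4b (0.27), Inpp5d (0.0058) and Pik3r3 (-0.0089) for cediranib, Pik3ca (-0.10), Pik3cd (0.47) and Akt1 (0.015) for combination against trametinib, Inpp4a (0.042) and Inppl1 (-0.094) for trametinib and Inppl1 (0.26) for the combination changed sign. With the myeloid score Inpp4b (0.15) and Inpp5d (0.024) for cediranib, Pik3cd (0.29) for combination against trametinib, Phlpp2 (-0.025) for trametinib and Inppl1 (0.20) for the combination did. With library totals Pik3cd (0.093) and Akt1 (0.082) for combination against trametinib and Inppl1 (0.12) for the combination did, and Inppl1 with RLE factors (0.0013), no filter (0.0033) or DESeq2 (0.0032). Without 1 tumor, log2 fold changes for cediranib ran from -0.36 to 0.13 for Inpp4b, from -0.21 to 0.0043 for Inpp5d and from -0.082 to 0.45 for Pik3r3. For trametinib they ran from -0.074 to 0.17 for Pik3ca, from -0.094 to 0.27 for Phlpp2 and from -0.13 to 0.0045 for Inpp4a. For the combination they ran from -0.057 to 0.21 for Pik3ca, from -0.065 to 0.61 for Pik3r1, from -0.057 to 0.78 for Irs1, from -0.032 to 0.033 for Inppl1 and from -0.038 to 0.11 for Akt2. For combination against trametinib they ran from -0.13 to 0.12 for Inpp5d, from -0.064 to 0.14 for Pik3ca, from -0.11 to 0.072 for Pik3cd, from -0.33 to 0.35 for Pik3r1 and from -0.49 to 0.036 for Pik3r3, and for combination against cediranib from -0.062 to 0.24 for Pik3cd and from -0.21 to 0.47 for Pik3r1. Depth was similar in all libraries, and the 3 tumors per group limit what small differences can show.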
